A study of Mus musculus with 8 samples.

Results

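The genes of the NF-kB subunits and of their inhibitors were examined in splenic B cells of mice that carry the human germinal centre gene HGAL. The list held 10 genes chosen by name: the subunits Nfkb1, Rel, Rela, Nfkb2 and Relb, the IkB proteins Nfkbia, Nfkbib, Nfkbie and Nfkbiz, and Tnfaip3, which encodes A20. A gene was measured where the platform annotation gave a probe set to that symbol alone, which held for 9 of the 10 genes, each with 1 probe set, of 19937 genes and 21640 probe sets in all. Nfkb1 was not analysed here. The Sca1-HGAL group held 4 samples of adult mice expressing HGAL, also called GCET2, under the Sca1 (Ly-6E.1) promoter, and the Control group held 4 samples of wild-type littermates. All mice were on a CBAxC57BL/6J background, and B cells were sorted from every spleen by their surface CD22 and B220. The labels call the Sca1-HGAL mice knock-in in one place and transgenic in another, and they give no age beyond adult, no sex, no number of founder lines and no statement of whether an array is 1 mouse or a pool. The Sca1 promoter is known to be active in blood stem and progenitor cells, so expression of HGAL need not be limited to B cells. Total RNA was measured on the Affymetrix Mouse Gene 1.0 ST platform, whose arrays read each gene with a set of probes along the transcript. Levels are log2 of the deposited intensity, and a log2 fold is the Sca1-HGAL mean minus the Control mean with its standard error (SE).

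NF-kB is a family of dimeric transcription factors that stay in the cytoplasm while bound to IkB proteins. In the canonical pathway, signals such as the B-cell receptor activate the IKK kinase complex, IkB is phosphorylated and degraded, and dimers of c-Rel or p65 with p50 enter the nucleus. In the non-canonical pathway, receptors such as those for BAFF and CD40 drive the processing of the Nfkb2 product, which then acts with RelB. NF-kB in turn induces several of its own inhibitors, among them the genes of IkB-alpha and A20, which end the response. In B cells these pathways are known for their part in survival and activation. The series title ties HGAL to activation of the kinase Syk by the B-cell receptor, and the comparison asks whether transcript levels of the NF-kB system differed in B cells that carry HGAL. The activity of NF-kB is set largely by the place and modification of proteins, which arrays do not measure.

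The genes of both sorting markers were strongly expressed. Cd22 averaged 12.70 ± 0.13 in Sca1-HGAL and 12.66 ± 0.04 in Control arrays (SD, n = 4 each), and Ptprc, the gene of B220, averaged 12.77 in both. All 7 measured B cell markers were above log2 6 on every array, with summed intensities of 54246 to 56195 in Sca1-HGAL and 56739 to 57817 in Control arrays. T cell markers were present as well, with Cd3e at 8.81 ± 0.55 in Sca1-HGAL and 8.72 ± 0.24 in Control arrays, so the cells were not shown to be B cells alone. Gcsam, the mouse counterpart of HGAL, averaged 6.47 ± 0.24 in Sca1-HGAL and 6.76 ± 0.33 in Control arrays, and a probe set for the mouse gene does not check that the human transgene is present. Control replicates 2 and 4 stood apart in sex-linked genes: Xist, which coats and silences an X chromosome in female cells, was at 12.17 and 12.18 on these, against 5.28 to 5.65 on the 4 Sca1-HGAL arrays and 5.32 and 5.56 on the other Control arrays. The Y-linked genes went the other way. Eif2s3y was at 4.22 and 3.96 on these, against 10.21 to 10.61 on all other arrays. Uty was at 4.78 and 4.93, against 9.48 to 9.63, and Kdm5d at 6.22 and 6.04, against 9.27 to 9.76. Only Control arrays thus had the pattern of female cells, so sex by these genes was unbalanced between the groups. Log2 folds with and without Control replicates 2 and 4 are given below for several genes, among them Tnfaip3, Rel and Nfkbia, but not for the marker lists. Gcsam was at 6.97 and 7.11 on these arrays, against 6.38 and 6.59 on Control replicates 1 and 3. In such bulk samples, fewer cells of a type and less RNA per cell cannot be told apart.

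No NF-kB gene passed the test, and the 2 with the largest differences, Tnfaip3 and Rel, were both lower on average in Sca1-HGAL arrays. Of the 9 measured genes, 0 had a limma adjusted p under 0.05, where 0.00462% of all probe sets (1 of 21640) did. At an unadjusted p under 0.05 there were 2, Tnfaip3 and Rel, both with a negative log2 fold, where 4.06% of all probe sets were below that p in this direction and 5.53% in the other. The limma adjusted p of the 9 genes ran between 0.39 and 0.94. For 0 of the 9 genes did the groups lie wholly apart, where 5.45% of all probe sets did and 2.3% of all did with Sca1-HGAL lower. The log2 fold was negative for 8 genes and positive for 1, and its median over the 9 was -0.10, beside 0.01 over all probe sets, of which 43.9% were negative. All 9 genes were above log2 8 on every array, with the lowest value at 8.32, so none was dim.

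**Figure D1:**
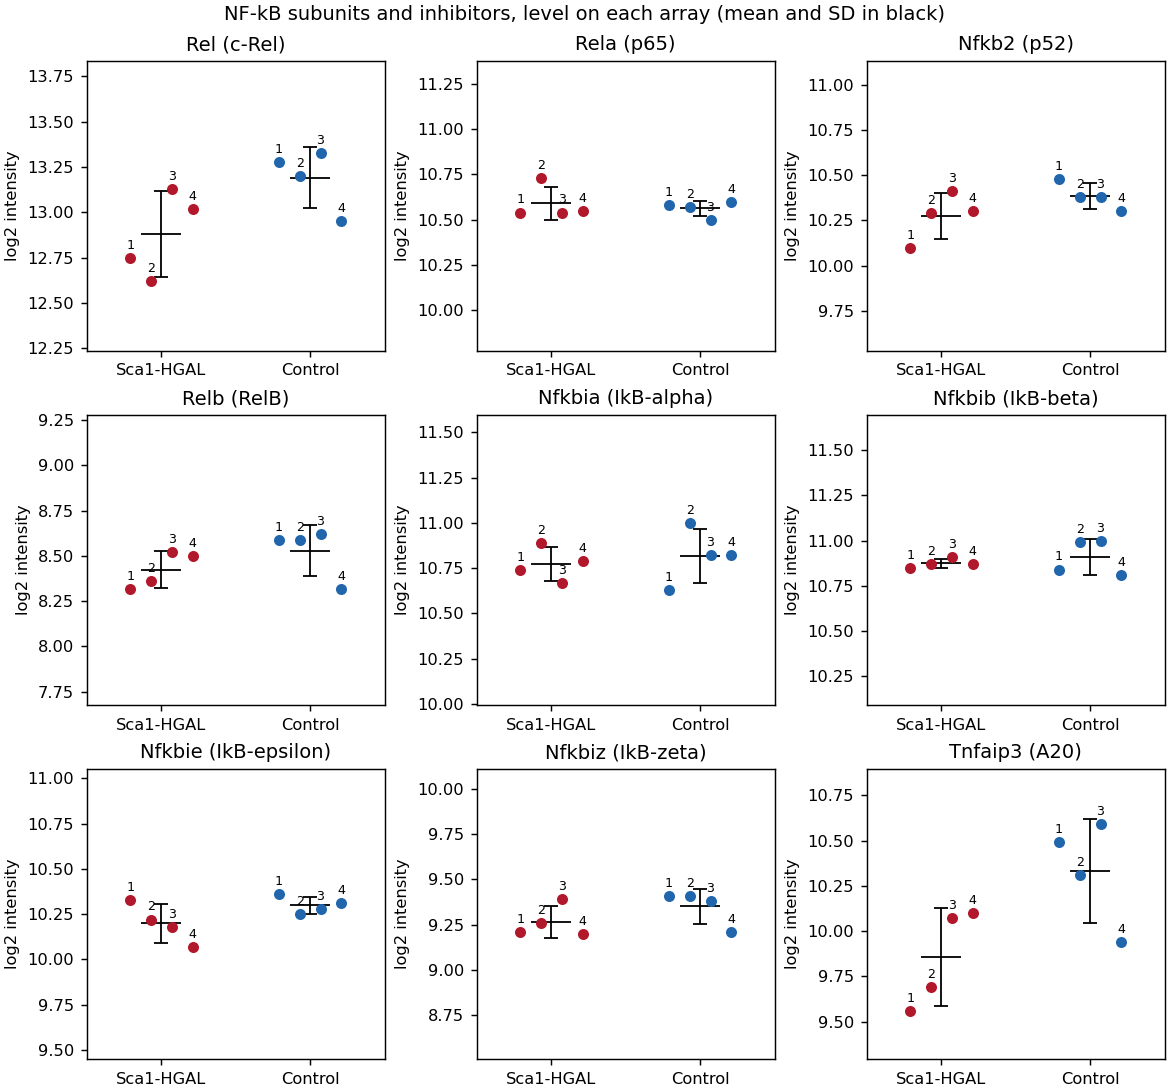
Log2 intensity of each measured NF-kB gene on the 4 Sca1-HGAL arrays (red, left) and the 4 Control arrays (blue, right). Every panel spans the same height on the log2 axis, numbers are replicates, and black bars are the mean and SD. Tnfaip3 and Rel spread most, with Sca1-HGAL replicates 1 and 2 lowest and Control replicate 4 below the other Control arrays, while Rela, Nfkbib and Nfkbiz have the narrowest ranges.

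Tnfaip3 encodes A20, an enzyme that edits ubiquitin chains on signalling proteins upstream of IKK and so restrains NF-kB. Its level was 9.56, 9.69, 10.07 and 10.10 in Sca1-HGAL replicates 1 to 4, against 10.49, 10.31, 10.59 and 9.94 in Control replicates 1 to 4. Of the Sca1-HGAL arrays, 2 lay below all Control arrays, and 3 Control arrays lay above all Sca1-HGAL arrays, and the groups overlapped through Control replicate 4. The means were 9.85 ± 0.27 in Sca1-HGAL and 10.33 ± 0.29 in Control arrays (SD, n = 4 each). Between the groups the log2 fold was -0.48 (SE 0.16, 95% interval -0.84 to -0.12), a level 0.72 times that of Control, with a limma adjusted p = 0.39. An exact permutation test over the 8 arrays gave an unadjusted two-sided p = 0.086, where 0.0286 is the smallest that 8 arrays allow. By that test 0 of the 9 genes had an unadjusted p under 0.05, where 5.45% of all probe sets did. With 4 arrays a group such a p is reached only where the groups lie wholly apart, so this repeats the overlap count above. Tnfaip3 lies on chromosome 10.

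Rel encodes c-Rel, the canonical subunit known to be prominent in mature B cells. Its level was 12.75, 12.62, 13.13 and 13.02 in Sca1-HGAL replicates 1 to 4, against 13.28, 13.20, 13.33 and 12.95 in Control replicates 1 to 4. The pattern was that of Tnfaip3, with Sca1-HGAL replicates 1 and 2 below every Control array and Control replicate 4 among the Sca1-HGAL values. The means were 12.88 ± 0.24 in Sca1-HGAL and 13.19 ± 0.17 in Control arrays (SD, n = 4 each). For Rel the log2 fold was -0.31 (SE 0.12, 95% interval -0.59 to -0.03), a level 0.81 times that of Control, with a limma adjusted p = 0.47 and an unadjusted exact permutation p = 0.11. Rel lies on chromosome 11.

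Rela encodes p65, the other canonical subunit measured, and its values set a narrow limit on any difference. Its level was 10.54, 10.73, 10.54 and 10.55 in Sca1-HGAL replicates 1 to 4, against 10.58, 10.57, 10.50 and 10.60 in Control replicates 1 to 4. Apart from Sca1-HGAL replicate 2, the arrays of both groups lay between 10.50 and 10.60. For Rela the log2 fold was 0.03 (SE 0.06, limma adjusted p = 0.94), and its 95% interval of -0.12 to 0.17 stands for a level between 0.92 and 1.12 times that of Control. The sign of this small value turned to -0.01 with median centring of the arrays. Whether the differences of Rel and Rela themselves differ was not tested.

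The non-canonical subunits had small negative differences that did not pass. Nfkb2 encodes the precursor of p52, and its level was 10.10, 10.29, 10.41 and 10.30 in Sca1-HGAL replicates 1 to 4, against 10.48, 10.38, 10.38 and 10.30 in Control replicates 1 to 4. Its log2 fold was -0.11 (SE 0.08, 95% interval -0.28 to 0.06, limma adjusted p = 0.69). The groups overlapped, with Sca1-HGAL replicate 1 lowest. Relb encodes RelB, the usual partner of p52, and its level was 8.32, 8.36, 8.52 and 8.50 in Sca1-HGAL replicates 1 to 4, against 8.59, 8.59, 8.62 and 8.32 in Control replicates 1 to 4. Here 3 Control arrays lay above every Sca1-HGAL array, and Control replicate 4 lay at the level of the lowest. For Relb the log2 fold was -0.11 (SE 0.08, 95% interval -0.29 to 0.08, limma adjusted p = 0.74).

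The 3 classical IkB genes, whose proteins hold NF-kB dimers in the cytoplasm, had log2 folds between -0.10 and -0.04. Nfkbia encodes IkB-alpha, the inhibitor that is degraded and remade fastest in the canonical response. Its level was 10.74, 10.89, 10.67 and 10.79 in Sca1-HGAL replicates 1 to 4, against 10.63, 11.00, 10.82 and 10.82 in Control replicates 1 to 4. All Sca1-HGAL values lay inside the Control range. For Nfkbia the log2 fold was -0.04 (SE 0.08, limma adjusted p = 0.92), with a 95% interval of -0.23 to 0.15, and it turned to 0.05 when the arrays with high Xist were left out. Nfkbib encodes IkB-beta, which is degraded more slowly, and it was at 10.85, 10.87, 10.91 and 10.87 in Sca1-HGAL replicates 1 to 4, against 10.84, 10.99, 11.00 and 10.81 in Control replicates 1 to 4. Its log2 fold was -0.04 (SE 0.06, 95% interval -0.18 to 0.10, limma adjusted p = 0.89), and its Sca1-HGAL arrays also lay within the Control range. Nfkbie encodes IkB-epsilon, another inhibitor of c-Rel and p65 dimers that NF-kB induces. It was at 10.33, 10.22, 10.18 and 10.07 in Sca1-HGAL replicates 1 to 4, against 10.36, 10.25, 10.28 and 10.31 in Control replicates 1 to 4. Of the Sca1-HGAL arrays, 3 lay below all Control arrays, and replicate 1 did not. For Nfkbie the log2 fold was -0.10 (SE 0.07, 95% interval -0.25 to 0.05, limma adjusted p = 0.68).

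Nfkbiz encodes IkB-zeta, an atypical IkB protein that acts in the nucleus on a subset of NF-kB target genes. Its level was 9.21, 9.26, 9.39 and 9.20 in Sca1-HGAL replicates 1 to 4, against 9.41, 9.41, 9.38 and 9.21 in Control replicates 1 to 4. Control replicate 4 was again apart from its group and near the lower Sca1-HGAL arrays. The log2 fold was -0.09 (SE 0.07, 95% interval -0.25 to 0.07, limma adjusted p = 0.74). For 7 of the 9 genes, all but Tnfaip3 and Rel, the 95% interval lay within 0.3 on either side of 0, so larger differences in transcript level lie outside it for these genes. Rela and Nfkb2 lie on chromosome 19, Relb and Nfkbib on chromosome 7, Nfkbia on chromosome 12, Nfkbie on chromosome 17 and Nfkbiz on chromosome 16.

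**Figure D2:**
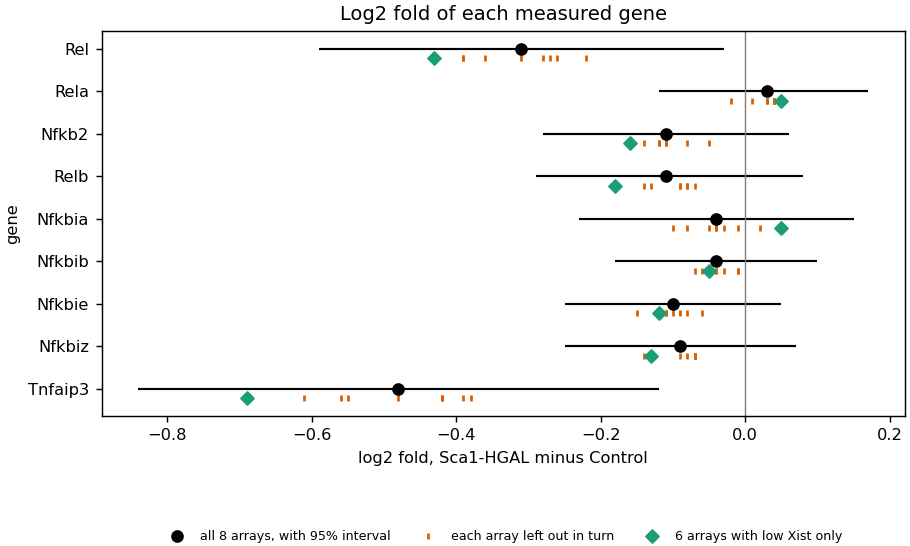
Log2 fold, Sca1-HGAL minus Control, of each measured NF-kB gene. Black points with lines are the fit to all 8 arrays with its 95% interval, orange ticks are fits without each array in turn, and green diamonds are the 6 arrays with low Xist. Tnfaip3 (-0.48) and Rel (-0.31) stand left of the other 7 genes, which lie between -0.11 and 0.03.

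The promoters of Rel, Tnfaip3 and Nfkbia are shown because NF-kB genes are known to be under the control of NF-kB itself, and because Rel and Tnfaip3 varied together between arrays while Nfkbia did not follow them. Each is the 250 bases before the start of the gene on its own strand, from RefSeq in the build GRCm38.p6, all 3 on the minus strand. Capitals mark matches to the NF-kB consensus motif of 10 bases, searched on both strands, where overlapping matches run together. The Rel window is at chr11:23770970-23771219, the first of the 2 Tnfaip3 windows at chr10:19015411-19015660 and the Nfkbia window at chr12:55492648-55492897.
Rel: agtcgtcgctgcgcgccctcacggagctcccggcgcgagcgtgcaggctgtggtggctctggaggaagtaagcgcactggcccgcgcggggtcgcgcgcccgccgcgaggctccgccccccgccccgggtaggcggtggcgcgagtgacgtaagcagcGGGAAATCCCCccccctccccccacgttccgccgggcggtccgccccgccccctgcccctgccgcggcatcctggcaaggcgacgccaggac
Tnfaip3: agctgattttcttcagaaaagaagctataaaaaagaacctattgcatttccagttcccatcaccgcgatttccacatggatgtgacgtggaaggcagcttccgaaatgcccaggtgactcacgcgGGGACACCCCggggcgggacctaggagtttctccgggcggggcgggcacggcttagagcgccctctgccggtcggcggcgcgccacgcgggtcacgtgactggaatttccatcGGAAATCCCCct
Nfkbia: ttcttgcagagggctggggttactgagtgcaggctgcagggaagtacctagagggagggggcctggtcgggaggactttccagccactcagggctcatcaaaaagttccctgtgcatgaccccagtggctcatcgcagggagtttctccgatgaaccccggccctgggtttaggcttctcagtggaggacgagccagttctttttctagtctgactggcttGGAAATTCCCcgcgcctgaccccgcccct
Rel held 2 overlapping matches that begin 92 and 91 bases before the start. Tnfaip3 held GGGACACCCC, which begins 125 bases before the start, and GGAAATCCCC, which begins 12 bases before it, and the second Tnfaip3 window, which is not shown, held no match. Nfkbia held GGAAATTCCC, which begins 29 bases before the start. Of the 7 NF-kB genes with a window in the table, some with several, 5 had a match in at least 1 window, against 4.46% of all 27025 genes with a window. The other matches were in Nfkb2 and Nfkbie, and the windows of Rela and Nfkbib held none. A match is a stretch of letters and not a shown binding site, and the genes with a match included both those with the largest log2 folds and Nfkbia, at -0.04.

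The NF-kB genes did not all vary alike from array to array. Over the 8 arrays, the level of Rel correlated with that of Tnfaip3 at r = 0.95, Relb at 0.92, Nfkb2 at 0.83 and Nfkbiz at 0.74, given as a description over arrays that include the difference between the groups. Nfkbib was at r = 0.56, Nfkbie at 0.07, Nfkbia at -0.09 and Rela at -0.48 with Tnfaip3. Sca1-HGAL replicate 1 was the lowest array for Tnfaip3, Nfkb2 and Relb, Sca1-HGAL replicate 2 for Rel, and Control replicate 3 was the highest for Tnfaip3, Rel, Relb and Nfkbib. Among 14876 other genes with a mean of log2 6 or more, the 3 whose levels were most like those of Tnfaip3 over the 8 arrays were Kpna1, Csrnp1 and Ing3. Kpna1 encodes an importin that carries proteins into the nucleus and had r = 0.980. Csrnp1, a nuclear protein gene, had r = 0.972, and Ing3, which encodes a chromatin reader protein, had r = 0.968. Their log2 folds were -0.36 (SE 0.12), -0.22 (SE 0.11) and -0.25 (SE 0.09), with limma adjusted p of 0.40, 0.56 and 0.45. Since likeness was taken over arrays that include the difference between the groups, these negative signs follow from that choice.

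Immediate early genes, which are induced within minutes by receptor signals and also by the handling of cells, were low on the same Sca1-HGAL arrays as Tnfaip3 and Rel. Their mean log2 level over 14 genes was 9.48, 9.29, 10.11 and 9.80 in Sca1-HGAL replicates 1 to 4, against 10.27, 9.94, 9.91 and 9.73 in Control replicates 1 to 4. Sca1-HGAL replicates 1 and 2 were again the lowest of the 8 arrays. The log2 fold was negative for 12 of the 14, with a median of -0.30, and 0 passed at a limma adjusted p under 0.05. Dusp1, a phosphatase gene of the MAP kinase pathway, had -0.61 (SE 0.26, limma adjusted p = 0.50), and the AP-1 genes Fosb and Junb had -0.42 (SE 0.18) and -0.40 (SE 0.19). Their part in the differences of Tnfaip3 and Rel was not tested.

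Markers of other B-cell subsets and of other cells varied between these arrays as well, and 0 of those in the lists named next had a limma adjusted p under 0.05. The mean level of 8 marginal zone B markers was 9.24 to 9.32 on the Sca1-HGAL arrays and 9.68 to 10.04 on the Control arrays, with 0 of the 8 log2 folds positive and summed intensities of 9531 to 11430 in Sca1-HGAL and 12245 to 15373 in Control arrays. That of 8 B-1 and age-associated B markers was 9.40, 9.28, 8.47 and 8.88 in Sca1-HGAL replicates 1 to 4, against 8.17 to 8.34 on the Control arrays, with 8 of 8 log2 folds positive and summed intensities of 4010 to 8281 in Sca1-HGAL and 3286 to 3908 in Control arrays. The 2 Sca1-HGAL arrays with the lowest Tnfaip3 and Rel were thus those with the highest levels of this list, and also of the neutrophil list given next. The mean level of 10 neutrophil markers was 7.56, 7.06, 6.32 and 6.75 in Sca1-HGAL replicates 1 to 4, against 6.14 to 6.83 on the Control arrays, with 10 of 10 log2 folds positive and summed intensities of 874 to 2753 in Sca1-HGAL and 758 to 1373 in Control arrays. Macrophage and monocyte markers had summed intensities of 1934 to 2907 in Sca1-HGAL and 1940 to 2735 in Control arrays, and NK cell markers had 609 to 1252 in Sca1-HGAL and 856 to 1152 in Control arrays. Within the macrophage list Adgre1, the gene of the surface protein F4/80, was at 8.67, 9.36, 8.55 and 8.61 in Sca1-HGAL replicates 1 to 4, against 7.83, 8.14, 7.54 and 7.63 in Control replicates 1 to 4, and its log2 fold was 1.01 (SE 0.19, limma adjusted p = 0.12). Its groups lay wholly apart, unlike those of the list's other measured genes, and the list had 4 positive and 5 negative log2 folds. Groups also lay wholly apart for 6 of 8 B-1 and age-associated B markers and 5 of 8 marginal zone B markers. They did so for 2 of 10 neutrophil and 2 of 4 plasmacytoid dendritic cell markers, where 5.45% of all probe sets did. These lists were chosen with earlier results of these data known, so that share is not a like comparison. Plasmacytoid dendritic cell markers had 780 to 869 in Sca1-HGAL and 880 to 1267 in Control arrays, and erythroid markers 3080 to 4329 in Sca1-HGAL and 1455 to 6216 in Control arrays. T cell markers, 4 of 8 with a positive log2 fold, had summed intensities of 956 to 2541 in Sca1-HGAL and 1254 to 1736 in Control arrays. The arrays carry no detection calls, and no marker was listed at 0. The part of these cells in the NF-kB differences was not tested.

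**Figure D3:**
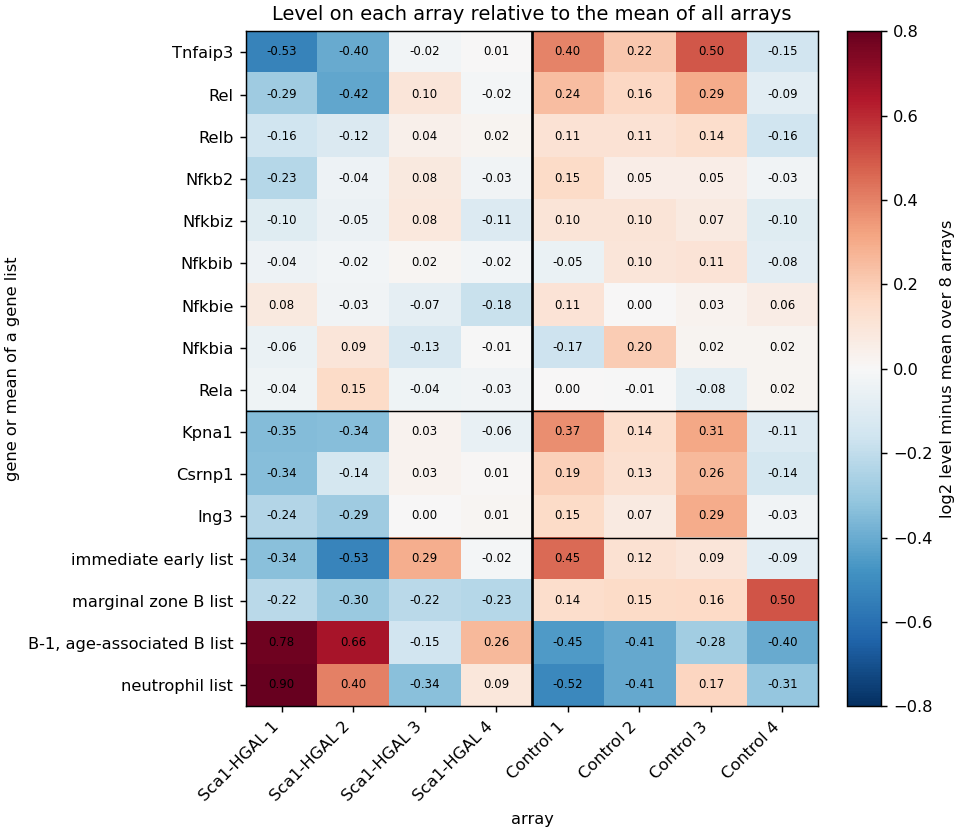
Level of each NF-kB gene, of the 3 genes most like Tnfaip3 and of the mean of 4 gene lists on each array, as log2 level minus the mean over all 8 arrays. Sca1-HGAL arrays are left of the black line and Control arrays right of it, red is higher and blue lower, and values past the end of the colour bar take its end colour. Tnfaip3, Rel and the immediate early list are lowest on Sca1-HGAL replicates 1 and 2, where the B-1 and age-associated B list and the neutrophil list are highest.

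For Tnfaip3, Rel and Relb, a single Control array, replicate 4, decided whether the groups overlapped. It had high Xist, but so had Control replicate 2, which was at 10.31, 13.20 and 8.59 in these genes, above every Sca1-HGAL array. Control replicate 4 also had the highest mean level of erythroid markers, 9.29, against 7.96 to 8.63 on the other arrays. The part of either trait in the overlap was not tested. Without Control replicate 4, Tnfaip3, Rel and Relb were each lower in all 4 Sca1-HGAL arrays than in the remaining 3 Control arrays, 3 of 9 genes, where 4.07% of all probe sets lay apart in this direction. Of the fits without 1 array this had the most NF-kB genes apart, and the others had 0 or 1. The array is thus named for its values in these genes, and the shares over all probe sets are not a like comparison. In the fit without Control replicate 4, 3 of the 9 genes had an unadjusted limma p under 0.05 with Sca1-HGAL lower, where 3.96% of all probe sets did, and 0 had an adjusted p under 0.05, where 0.00462% did. Then the log2 fold was -0.61 (SE 0.14, limma adjusted p = 0.28) for Tnfaip3, -0.39 (SE 0.12, adjusted p = 0.40) for Rel and -0.18 (SE 0.07, adjusted p = 0.52) for Relb. On the 6 arrays with low Xist, which leave 2 Control arrays, the same 3 genes lay apart, where 6.6% of all probe sets did in this direction. That set also lacks Control replicate 4, so these 3 genes had to lie apart in it, and the count is not a second result. The log2 fold there was -0.69 (SE 0.16, limma adjusted p = 0.49) for Tnfaip3 and -0.43 (SE 0.14, adjusted p = 0.57) for Rel. That comparison was chosen after the data were seen, and 0 of the 9 genes had an adjusted p under 0.05 in it, where 0.00924% of all probe sets did. At an unadjusted limma p under 0.05 there were 2, Tnfaip3 and Rel, where 3.15% of all probe sets were lower in Sca1-HGAL. At the other end, the log2 fold of Rel was -0.22 (SE 0.12, limma adjusted p = 0.74) without Sca1-HGAL replicate 2, and that of Tnfaip3 was -0.38 (SE 0.16, adjusted p = 0.40) without Sca1-HGAL replicate 1. Without Sca1-HGAL replicate 1, Nfkbie was the 1 gene of the 9 whose groups lay apart, with Sca1-HGAL lower, where 4.54% of all probe sets did in this direction. Its log2 fold was then -0.15 (SE 0.06, limma adjusted p = 0.42).

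**Figure D4:**
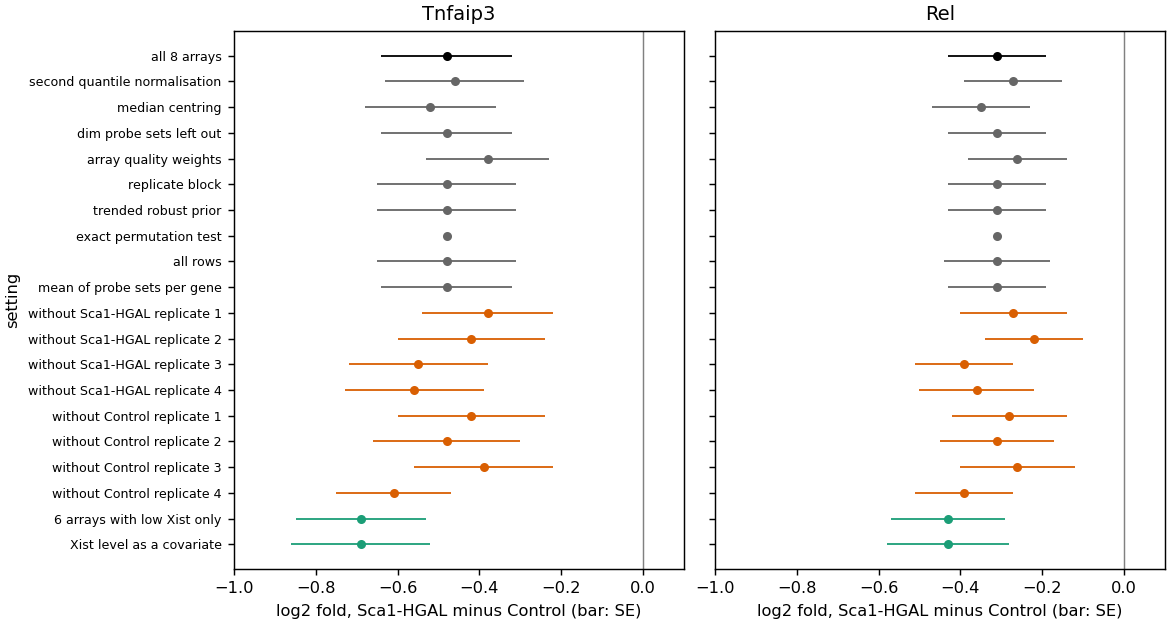
Log2 fold, Sca1-HGAL minus Control, of Tnfaip3 (left) and Rel (right) under each way of processing, with its SE as a bar where the fit gives one. Black is the fit to all 8 arrays, grey other processing, orange 1 array left out, and green the settings that use the Xist level. All values are negative, between -0.69 and -0.38 for Tnfaip3 and between -0.43 and -0.22 for Rel. Filter, prior, row, probe set, block and permutation settings leave the log2 fold unchanged by construction. Both green settings give the same log2 fold by construction.

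The other genes of the pathway were also without a call. Of the 2 further IkB family genes, Bcl3, a nuclear IkB protein that binds p50 and p52, was at 10.10, 10.22, 10.05 and 9.97 in Sca1-HGAL replicates 1 to 4, against 9.89, 9.74, 10.06 and 9.88 in Control replicates 1 to 4. For Bcl3 the log2 fold was 0.19 (SE 0.08, limma adjusted p = 0.50), opposite in sign to those of 8 of the 9 genes above. On the 6 arrays with low Xist, Bcl3 had 0.11 (SE 0.10). Nfkbid, the gene of IkB-NS, had 0.06 (SE 0.14). Of 6 measured genes of the IKK complex, which phosphorylates IkB, and of the TAK1 complex, which activates IKK, 0 passed in either direction and the log2 folds ran between -0.04 and 0.06, with Ikbkg, the regulatory subunit of IKK, at 0.06 and the TAK1 adaptor genes Tab1 at 0.04 and Tab3 at -0.03. Chuk was not analysed here.

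The branch that links the B-cell receptor to IKK had 4 measured genes, with log2 folds between -0.22 and -0.00 and 0 past the threshold. Malt1, a protease and scaffold of this complex, was at 11.23, 11.12, 11.64 and 11.50 in Sca1-HGAL replicates 1 to 4, against 11.96, 11.59, 11.40 and 11.44 in Control replicates 1 to 4. Its log2 fold was -0.22 (SE 0.14, limma adjusted p = 0.67), and Sca1-HGAL replicates 1 and 2 were the lowest arrays here too. The adaptor gene Bcl10 had -0.12 and the ubiquitin ligase gene Traf6 -0.01. Syk, the kinase of the series title, had 0.06 (SE 0.07, limma adjusted p = 0.83).

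Among 8 measured genes of the non-canonical pathway, 0 passed and the log2 folds ran between -0.09 and 0.11. Map3k14, which encodes the kinase NIK that starts this pathway, had -0.09 (SE 0.07), the lymphotoxin receptor gene Ltbr had 0.08 and Tnfrsf13b, the gene of the receptor TACI, had 0.11. The probe sets of Birc2, an inhibitor that keeps NIK low, disagreed: the brighter had -0.01, and a dimmer one had 0.23 (SE 0.08, limma adjusted p = 0.42) with its groups wholly apart. Traf3 was not analysed here. Of 12 genes of A20 partners, linear ubiquitin ligases and deubiquitinases, 6 had a positive and 6 a negative log2 fold and 0 passed. Tax1bp1, an adaptor that works with A20, was at 10.36, 10.39, 10.69 and 10.57 in Sca1-HGAL replicates 1 to 4, against 10.79, 10.67, 10.72 and 10.65 in Control replicates 1 to 4. Its log2 fold was -0.21 (SE 0.08, limma adjusted p = 0.47), while Otulin, a deubiquitinase gene for linear chains, had -0.14 and Sharpin, a part of the ligase for such chains, 0.09. Of 6 genes that degrade IkB, 5 had a negative log2 fold and 0 passed, with the recognition subunits Fbxw11 at -0.15 and Btrc at -0.10 and the ligase core gene Skp1 at -0.13.

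Known NF-kB target genes had log2 folds of both signs. Of 18 measured, 10 had a positive and 8 a negative log2 fold, with a median of 0.07 beside 0.01 over all probe sets, and 0 passed. Traf1, a signalling adaptor of TNF receptors, was at 9.52, 9.78, 9.53 and 9.69 in Sca1-HGAL replicates 1 to 4, against 9.26, 9.13, 8.88 and 9.57 in Control replicates 1 to 4. For Traf1 the log2 fold was 0.42 (SE 0.13, limma adjusted p = 0.35), with Control replicate 4 the only Control array within the Sca1-HGAL range. Ccr7, a homing receptor for lymphoid tissue, was at 11.31, 11.47, 11.96 and 11.64 in Sca1-HGAL replicates 1 to 4, against 12.10, 11.96, 12.16 and 11.81 in Control replicates 1 to 4. For Ccr7 the log2 fold was -0.41 (SE 0.13, limma adjusted p = 0.36). Plek, the gene of pleckstrin, had 0.19 (SE 0.09), and 0.08 (SE 0.10) on the 6 arrays with low Xist.

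**Figure D5:**
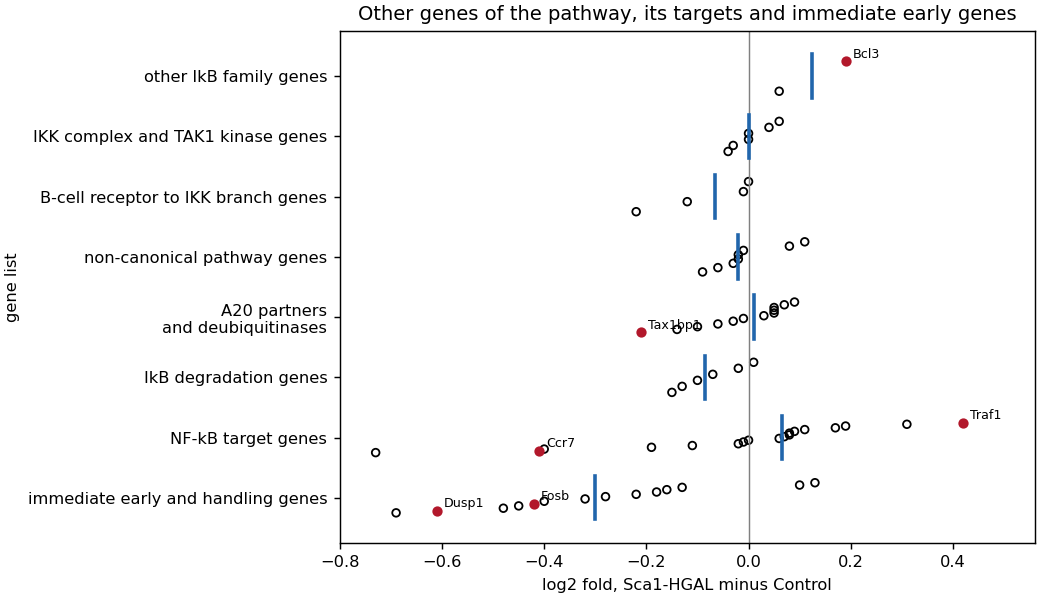
Log2 fold, Sca1-HGAL minus Control, of each measured gene in the lists of other pathway genes, NF-kB targets and immediate early genes. Blue bars are list medians, and filled red points with names have an unadjusted limma p under 0.05, which 9.59% of all probe sets had. The kinase and non-canonical lists lie close to 0, targets spread to both sides with Traf1 at 0.42 and Ccr7 at -0.41, and the immediate early list has a median of -0.30.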

How the data were processed

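The authors deposited linear intensities that had been through RMA (named in the submitters' processing notes), which adjusts background, equalises the arrays' distributions and combines the probes of a set. The RMA version, probe annotation and build are not given in the labels used here. The intensities ran between 4.94 and 24302, with array medians of 145.2 to 151.4, and were put on the log2 scale without a pseudocount or filter. Equalised distributions hide any change that most genes share. No 2 arrays shared more than 0.06% of equal values.

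Of 34760 rows, 21640 had 1 gene symbol in the platform table and were tested. A gene was represented by its probe set with the highest mean over 8 arrays. Groups and replicate numbers came from the sample titles. Differences were tested with limma (version 3.58.1, R version 4.3.3; functions lmFit and eBayes, no covariate, two-sided, Benjamini-Hochberg over all 21640, threshold 0.05), after a test on simulated data. Since no label says that samples came from separate mice, the p-values reflect only how these samples vary, which may be technical. The genes and lists were chosen with earlier results of these data known. The text names all NF-kB genes, up to 3 genes per pathway list with the smallest p, the 3 genes most like the NF-kB gene with the smallest p, and sex-linked genes, Gcsam and Syk; marker genes and Birc2 were named after their values were seen. Symbols that are no current name were matched through synonyms in the RefSeq table (GRCm38.p6), which also gave chromosomes. Alternatives were other normalisation, centring, filters, weights, priors, tests, rows and probe set rules, a replicate block and leaving out each array. The settings with the Xist level were added after seeing the data, and the covariate was coded only as high or low.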

Additional observations from a re-analysis of the deposited data

Results flagged for a closer look

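A single array stood far from the other 3 of its group in 5 of the 82 sets of 4 arrays examined, and about 4.1 would be so by chance, 1 in 20. Among the NF-kB genes, Rela was at 10.73 on Sca1-HGAL replicate 2 (others 10.54 to 10.55), Relb at 8.32 on Control replicate 4 (others 8.59 to 8.62) and Nfkbiz at 9.21 on Control replicate 4 (others 9.38 to 9.41). Map3k14 was at 8.82 on Sca1-HGAL replicate 1 (others 9.06 to 9.11), and the Y-linked gene Uty was at 9.59 on Sca1-HGAL replicate 3 (others 9.48 to 9.49).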

How the results depend on the processing

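The 41 named genes gave 779 values under 19 alternative settings, of which 754 kept their direction, and 0 of the NF-kB genes passed in any, with 0.25 as the lowest limma adjusted p. Tnfaip3 and Rel kept a negative log2 fold in all 19, but not every setting could change it. The dim filter, the replicate block and the prior left the log2 fold of each named gene unchanged by construction. So did the permutation test, the added rows and the averaging of probe sets. Both Xist settings give the same log2 fold, since the covariate only marks the arrays with high Xist. The count of 754 includes such values. The 25 values that changed sign were at most 0.15 in size in the alternative setting. With all 8 arrays the sex-linked genes among them had -3.31 (Xist), 3.15 (Eif2s3y), 2.30 (Uty) and 1.61 (Kdm5d). For the other genes the cause was not tested. With median centring Rela had -0.01, and without 1 array it ran between -0.02 and 0.04. Nfkbia had 0.05 with the 6 low-Xist arrays, and so also with Xist as a covariate, and -0.10 to 0.02 without 1 array. Nfkbid had -0.05 in both Xist settings and -0.06 to 0.15 without 1 array. Tab1 ran between -0.02 and 0.12 without 1 array. Traf6 had 0.02 after a second quantile normalisation and in both Xist settings, 0.00 with array weights, and -0.03 to 0.03 without 1 array. In both Xist settings, which take out the contrast of high and low Xist by construction, Xist had 0.06, Eif2s3y -0.01, Kdm5d -0.15 and Uty -0.06.

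The count of probe sets past the threshold, 1 in all 8 arrays, was 3 with median centring, 12 with array weights, 6 with a replicate block, 2 with probe sets averaged per gene and 2 on the 6 low-Xist arrays. It was 0 by the exact permutation test, whose smallest p of 0.0286 could pass over 21640 probe sets only if most of them had it, so this 0 says nothing about stability. In that test 0 of the 9 NF-kB genes had an unadjusted p under 0.05 (2 by limma), beside 5.45% of all probe sets. Only groups that lie wholly apart can reach such a p there, so this restates the overlap count in all 8 arrays. The count of probe sets past the threshold was 1 to 40 without 1 array, with 40 without Sca1-HGAL replicate 3. NF-kB genes whose groups lay apart numbered 0 to 3 without 1 array (3 without Control replicate 4, beside 4.07% of all probe sets lower in Sca1-HGAL, and 1 without Sca1-HGAL replicate 1, beside 4.54%) and 3 on the 6 low-Xist arrays, beside 6.6%. Control replicate 4 is named because its fit gave the most, so its share is not a like comparison. The low-Xist set also lacks that array, so its 3 genes had to lie apart. The shared replicate numbers gave no sign of pairing, with correlations of deviations of -0.16, 0.0529, -0.134 and -0.0103 for numbers 1 to 4, and the replicate block gave -0.48 for Tnfaip3 (limma adjusted p = 0.51) and -0.31 for Rel (0.56), with no call on an NF-kB gene changed. Having 4 arrays a group limits the precision.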
